A study of Rattus norvegicus with 32 samples.

Results

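The comparison described here is the response of sham-operated rats to ozone, set side by side in the hypothalamus and the brainstem. Its members are the 16 sham libraries of the 32 libraries in the series, chosen by their labels. The rats were of the inbred Wistar Kyoto strain, whose blood pressure is normal, and had a sham operation that left the adrenal glands in place. At 13 weeks of age they breathed ozone at 0.8 ppm or filtered air for 4 hours, and both tissues were taken immediately afterwards. The 4 groups were hypothalamus after ozone, hypothalamus after air, brainstem after ozone and brainstem after air, with 4 libraries each. Messenger RNA selected from the removed tissue was sequenced. In each tissue the ozone libraries carry the numbers 17 to 20 and the air libraries the numbers 1 to 4. The labels do not say that each library came from a separate animal or that a number marks an animal, so each p-value rests on the spread from library to library, which may be technical. The other 16 libraries, from rats whose adrenal glands had been removed (adrenalectomy, ADREX) and which breathed the same ozone or air, enter once, near the end.

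Ozone is an irritant gas that reacts in the airways, and its inhalation is known to activate the hypothalamic-pituitary-adrenal axis in rats. In that axis the paraventricular nucleus of the hypothalamus drives the pituitary, and the adrenal cortex answers with corticosterone, the main glucocorticoid of the rat. Corticosterone enters the brain and binds the glucocorticoid receptor, a transcription factor present in neurons, glia and the cells of blood vessels. The brainstem holds the nuclei that receive vagal input from the airways and the noradrenergic cell groups that signal to the hypothalamus. The comparison therefore sets an endocrine centre beside a relay of airway and autonomic signals.

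The libraries held between 6.48 and 11.3 M reads. Of the 22587 genes in the table, the 14536 with a mean of 10 or more normalized counts over the 16 libraries were tested. The tissue labels matched regional genes: the melanin-concentrating hormone gene Pmch had 1774 to 3262 normalized counts in the hypothalamus and 3.12 to 41.4 in the brainstem. The hindbrain patterning gene Hoxb5 had 0 to 6.62 in the hypothalamus and 280 to 749 in the brainstem. Some libraries stood apart by transcripts that the liver makes. These summed to 3052 reads per M reads (RPM) in hypothalamus ozone 18, 3926 in hypothalamus air 2, 3687 in brainstem ozone 18 and 1311 in brainstem air 2, against 14.9 to 802 RPM in the other 12 libraries. The defining liver gene Alb had 43.7 to 18028 normalized counts over all 16, and no member of that list was at 0 in every library. Counts are therefore also given without the 3 libraries highest in these transcripts, namely hypothalamus ozone 18, hypothalamus air 2 and brainstem ozone 18. Red blood cell transcripts were highest in number 17 of both tissues, at 513 RPM in hypothalamus ozone 17 and 632 RPM in brainstem ozone 17. In bulk tissue, fewer cells of a type and less RNA per cell cannot be told apart.

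The question of the comparison was whether ozone changed the same genes by the same amount in both tissues. Only the secreted phospholipase Pla2g3, which releases fatty acids from membrane phospholipids, passed the test of the tissue difference, and both tissues raised it. Pla2g3 had 326, 291, 399 and 353 normalized counts in the hypothalamus ozone libraries, against 36.1, 29.7, 23.5 and 21.4 in the hypothalamus air libraries. In the brainstem it had 580, 617, 678 and 629 normalized counts after ozone, against 134, 155, 130 and 132 after air. Ozone and air libraries did not overlap in either tissue, and the 4 hypothalamus air libraries were the lowest of all 16. The ozone change on the log2(normalized count + 1) scale was 3.60 ± 0.14 in the hypothalamus and 2.18 ± 0.14 in the brainstem (estimate ± SE from limma, 4 libraries per group, as for all changes below). The difference, hypothalamus minus brainstem, was 1.42 ± 0.20, with a 95% interval of 1.0 to 1.84 and a limma adjusted p of 0.026. On the linear scale the order was the other way: the means rose by 315 normalized counts in the hypothalamus and by 489 in the brainstem, and the hypothalamus air mean was 0.201 of the brainstem air mean.

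Pla2g3 was 1 call among 14536 genes tested (0.00688%), at a limma adjusted p under 0.05. At an unadjusted p under 0.05 there were 632 genes (4.35%), and edgeR and DESeq2 on the recovered reads also called 1 gene each. At the median SE a lone gene needed a difference of 1.38 log2 units to pass the Benjamini-Hochberg adjustment. Smaller differences could therefore go uncalled. The edgeR adjusted p of Pla2g3 was 0.0109 and the DESeq2 adjusted p was 7.84e-08. Over all alternatives the difference stayed between 1.28 and 1.55, while the adjusted p ran from 7.84e-08 to 0.983. The limma call was lost when any brainstem library was left out, and also without hypothalamus ozone 17, 19 or 20 or hypothalamus air 3, with adjusted p between 0.051 and 0.116 in these fits. It was lost without the 3 liver-rich libraries too (limma adjusted p = 0.0673).

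The genes with the next smallest p in each direction did not pass, with a limma adjusted p of 0.832 for each. Cdkn1a, the cell cycle inhibitor p21, had the largest difference toward the brainstem among the genes called in both tissues. It had 950, 942, 1110 and 904 normalized counts in the hypothalamus ozone libraries, against 296, 288, 231 and 220 in the hypothalamus air libraries. Its brainstem values were 1229, 1016, 1478 and 1231 normalized counts after ozone, against 164, 143, 225 and 168 after air. The air libraries of the hypothalamus were mostly above those of the brainstem and the ozone libraries mostly below, so the change was 1.92 ± 0.14 in the hypothalamus and 2.82 ± 0.14 in the brainstem (difference -0.91 ± 0.20, 95% interval -1.33 to -0.49). Pex11a, a protein of peroxisome division, had 506, 444, 504 and 495 normalized counts in the hypothalamus ozone libraries, against 194, 231, 178 and 166 in hypothalamus air. It had 774, 681, 827 and 787 in the brainstem ozone libraries, against 174, 186, 193 and 203 in brainstem air. The air levels of Pex11a were alike in both tissues and the ozone levels were not, with changes of 1.35 ± 0.10 and 2.01 ± 0.10 in hypothalamus and brainstem and a difference of -0.67 ± 0.14.

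**Figure D1:**
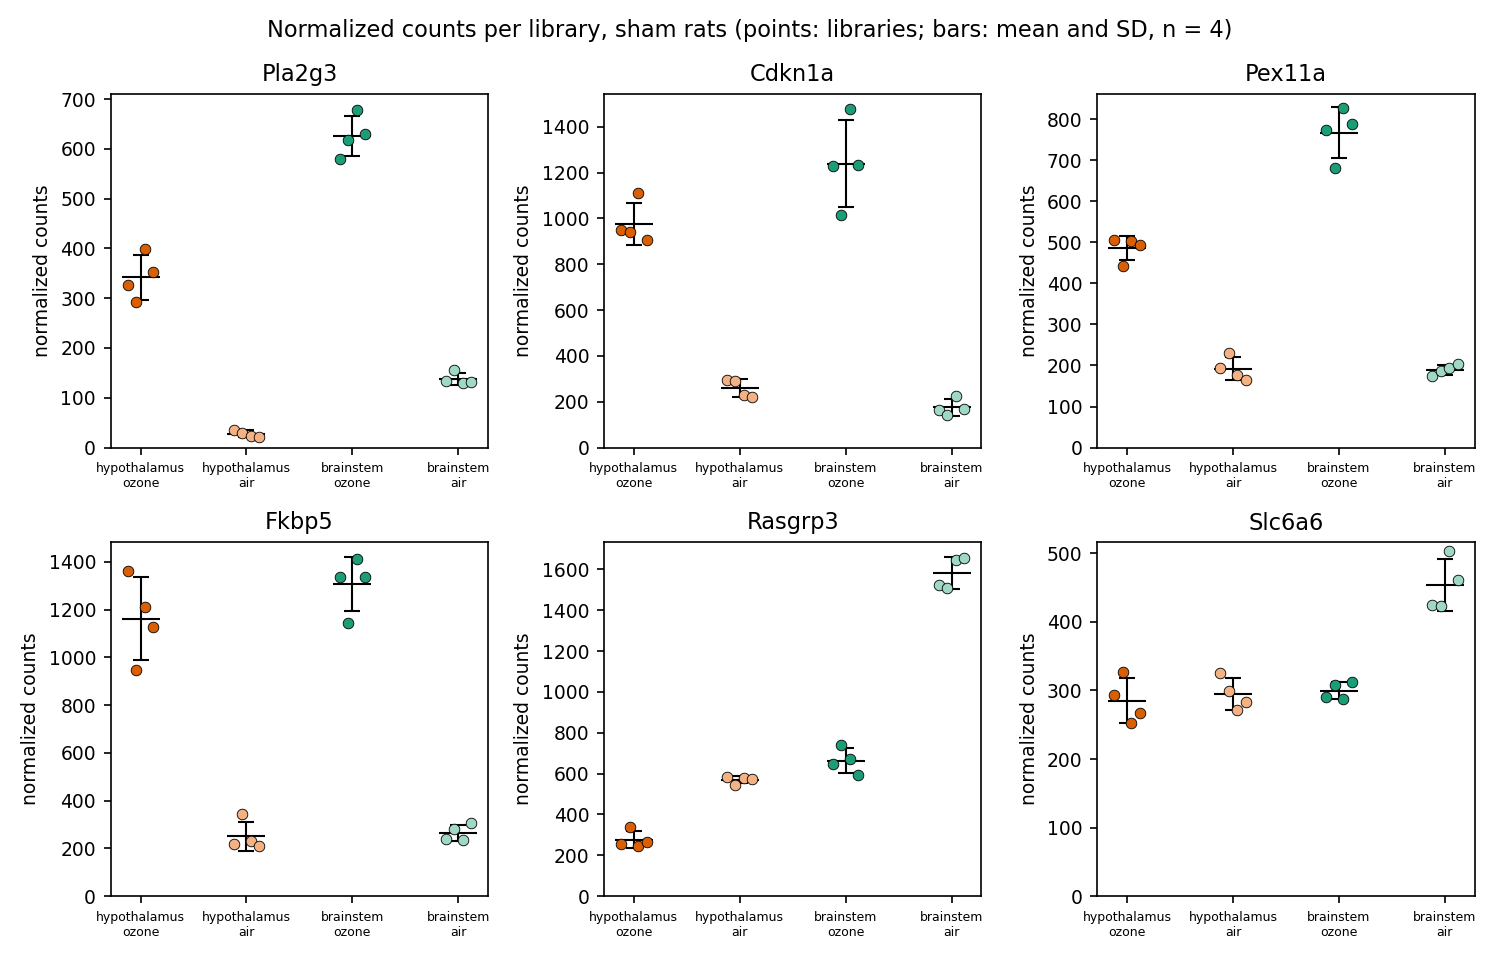
Normalized counts (linear axis from 0) of 6 genes in each sham library, with the mean and SD of each group of 4 libraries. Pla2g3, Cdkn1a, Pex11a and Fkbp5 were higher after ozone in both tissues and Rasgrp3 was lower in both, whereas the Slc6a6 groups separated in the brainstem and overlapped in the hypothalamus.

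Of the other genes of small p, 6 were called in 1 tissue and not in the other. In the direction of the hypothalamus these were Slc6a6, the taurine transporter, Csf1, a cytokine that sustains microglia, and the telomere protein Acd. Slc6a6 had 293, 327, 253 and 267 normalized counts after ozone in the hypothalamus against 326, 299, 272 and 284 after air. In the brainstem it had 291, 308, 287 and 313 after ozone against 425, 423, 504 and 462 after air. Slc6a6 thus separated by exposure in the brainstem (-0.59 ± 0.09, limma adjusted p = 0.00147) and overlapped in the hypothalamus (-0.05 ± 0.09, adjusted p = 0.81), with a difference of 0.54 ± 0.13. Csf1 had values of 0.03 ± 0.08 in the hypothalamus and -0.45 ± 0.08 in the brainstem, and Acd of 0.12 ± 0.10 and -0.46 ± 0.10. Lrrc1 (0.23 ± 0.09 in the hypothalamus and -0.26 ± 0.09 in the brainstem) and Mapkapk3, a kinase activated by p38 (0.33 ± 0.11 and -0.23 ± 0.11), had values of opposite sign and similar size and were called in neither tissue. In the direction of the brainstem, beside Cdkn1a and Pex11a, were the DNA repair nuclease gene Ercc4 (-0.16 ± 0.12 in the hypothalamus and 0.59 ± 0.12 in the brainstem), the cadherin Cdh22 (-0.13 ± 0.11 and 0.50 ± 0.11) and Rgs16, a brake on G protein signalling (-0.53 ± 0.11 and 0.10 ± 0.11). Single-tissue calls among them were lost for Acd without any of brainstem air 1 to 4 or brainstem ozone 17 or 19 (highest limma adjusted p 0.0816), for Rgs16 without hypothalamus air 1 or ozone 20 (highest 0.0578) and for Cdh22 without brainstem air 3, air 4, ozone 19 or ozone 20 (highest 0.0857).

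Each tissue on its own gave many more calls. Limma called 384 genes in the hypothalamus (2.64% of those tested), 212 of them higher (1.46%) and 172 lower (1.18%) after ozone. In the brainstem it called 309 (2.13%), 182 higher (1.25%) and 127 lower (0.874%). The calls fell together: 175 genes were called in both tissues, and all of them moved in the same direction. The 114 shared higher genes were 53.8% of the hypothalamus list and 62.6% of the brainstem list, and the 61 shared lower genes were 35.5% and 48.0%. Of the genes called in the hypothalamus, 376 (97.9%) moved the same way in the brainstem, where their median change in the direction of the call was 0.40 against 0.57 in the hypothalamus itself. Of those called in the brainstem, 301 (97.4%) moved the same way in the hypothalamus, with medians of 0.50 in the hypothalamus and 0.59 in the brainstem. The hypothalamus count was 236 without hypothalamus air 1, 232 without air 3, 225 without air 4 and 244 without ozone 20. The brainstem count was 204 without brainstem air 3, 172 without ozone 19 and 167 without ozone 20, and the shared count was 115 without brainstem ozone 20. Without the 3 liver-rich libraries limma called 340 genes in the hypothalamus and 526 in the brainstem. Of the 224 then shared, 151 were among the 175.

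Across all tested genes the changes were only loosely related. Pearson's r was 0.18 and Spearman's rho 0.21, and 8175 genes (56.2%) had the same sign. These are descriptions across genes, which are not independent and share the libraries of each group. Liver transcripts lay far from the rest: the 19 tested had a median change of 1.21 in the hypothalamus and -1.91 in the brainstem, and 2 of them had the same sign in both. The r was -0.0284 without hypothalamus air 2, 0.02 without hypothalamus ozone 20, 0.03 without brainstem ozone 18, 0.32 without brainstem air 3 and 0.48 without hypothalamus ozone 18. Without the 3 liver-rich libraries r was 0.11, rho was 0.32 and 60.6% of genes had the same sign.

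**Figure D2:**
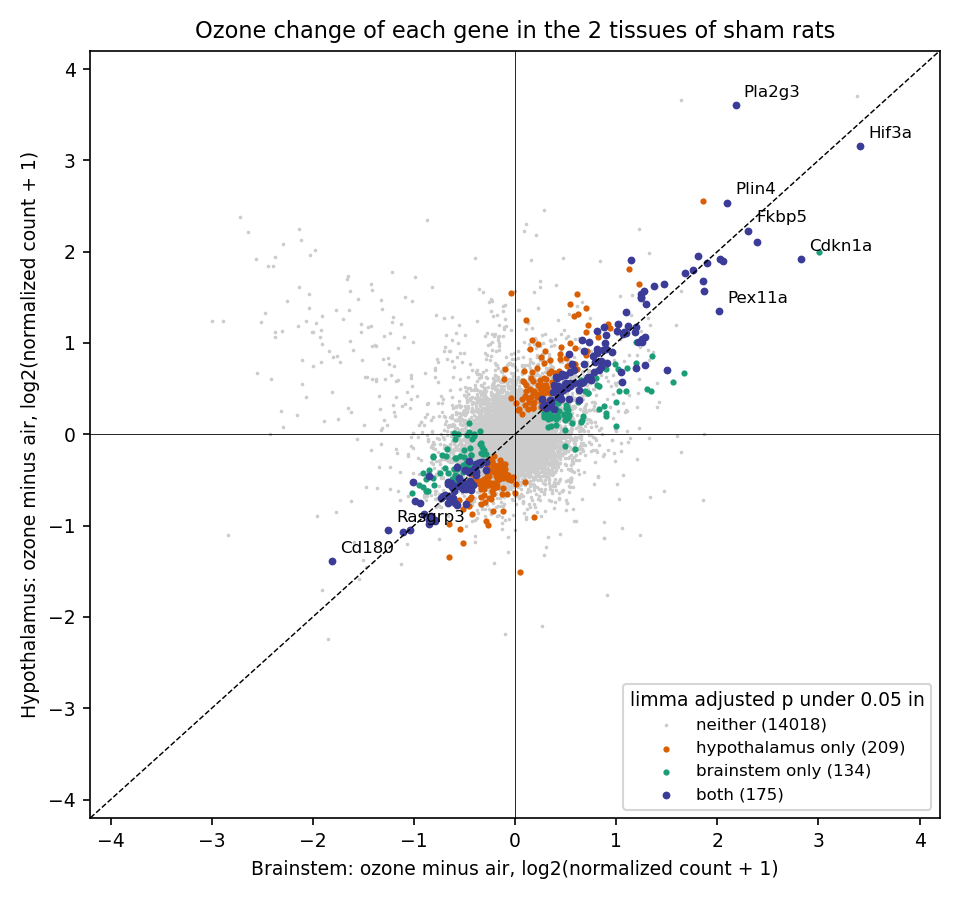
Ozone change of each of the 14536 tested genes in the brainstem (x axis) and the hypothalamus (y axis), both as ozone minus air on the log2(normalized count + 1) scale, coloured by the limma calls, with a dashed line where both changes are equal. The 175 genes called in both tissues lie in the upper right and lower left, whereas uncalled genes also spread to the upper left.

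Among the 175 shared genes the size of the change was close in both tissues. The median change of the shared higher genes was 0.73 in the hypothalamus and 0.76 in the brainstem, and that of the shared lower genes was -0.56 in each. The change was larger in size in the hypothalamus for 94 genes and in the brainstem for 81. The median absolute difference was 0.09, and the 95% interval of the difference lay within 1 log2 unit of 0 for 162 genes and within 0.5 for 111. It left out 0 for 12 genes, among them Pla2g3, Cdkn1a, Pex11a and the lipase Pnpla2. Ozone and air libraries did not overlap in either tissue for 164 of the 175; over all tested genes ozone lay wholly above air for 4.83% in the hypothalamus and 3.52% in the brainstem, and wholly below for 4.79% and 3.65%. Because being called in both tissues chose these genes, their likeness is a description.

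**Figure D3:**
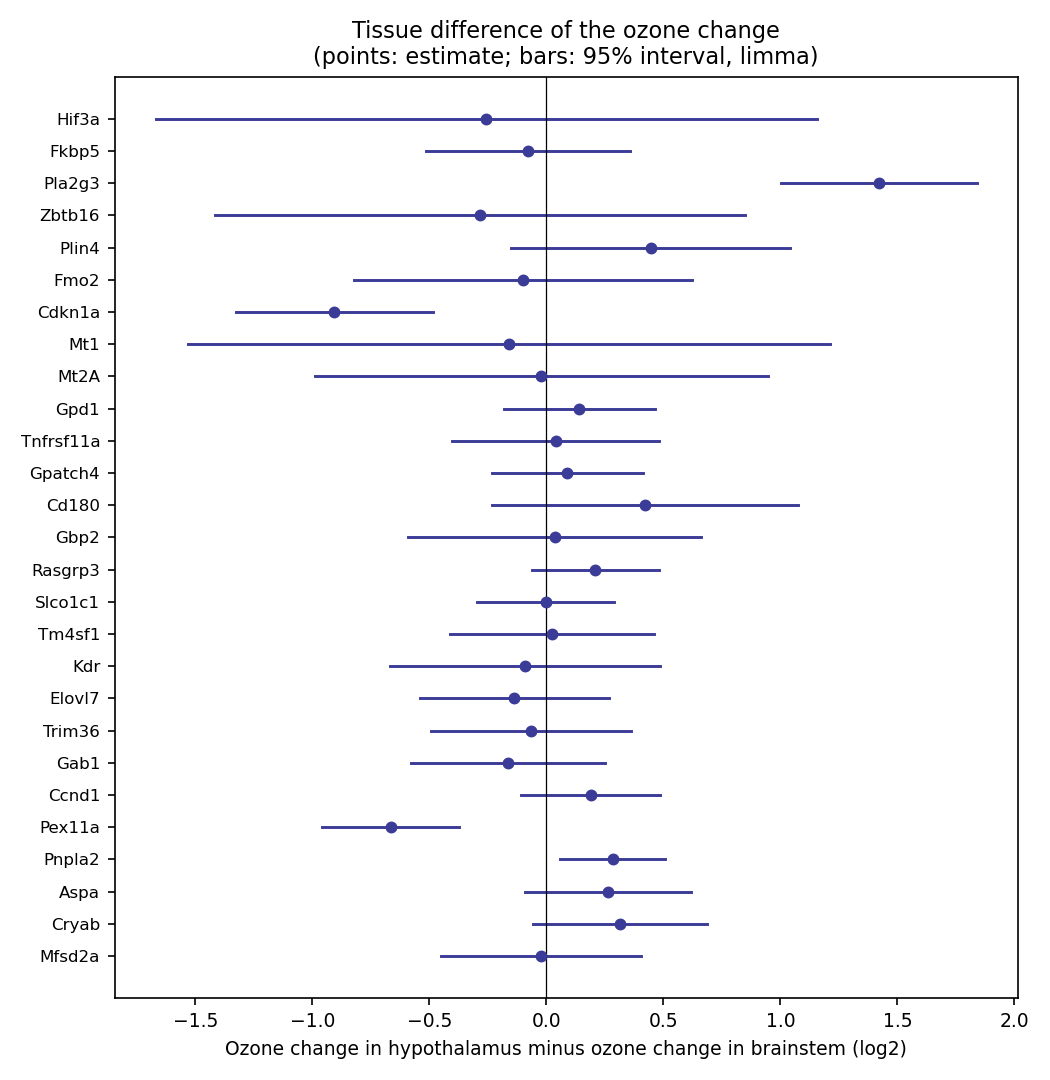
Difference of the ozone change, hypothalamus minus brainstem, on the log2 scale for 27 named genes called in both tissues, with 95% limma intervals. The interval of Pla2g3 lies above 0 at 1.0 to 1.84, those of Cdkn1a and Pex11a lie below 0, that of Pnpla2 lies just above 0, and the other intervals include 0.

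Fkbp5 and Tsc22d3, which glucocorticoids induce, rose in both tissues, and Nr3c1, the gene of the glucocorticoid receptor, fell. Fkbp5, a co-chaperone that lowers the affinity of the glucocorticoid receptor and is itself induced by it, had 1363, 947, 1209 and 1126 normalized counts in the hypothalamus ozone libraries, against 217, 342, 232 and 209 in hypothalamus air. It had 1338, 1146, 1410 and 1338 in the brainstem ozone libraries, against 238, 281, 234 and 304 in brainstem air. Fkbp5 was thus alike in both tissues at both exposures, with changes of 2.23 ± 0.15 and 2.31 ± 0.15 in hypothalamus and brainstem, and a difference of -0.08 ± 0.21 (95% interval -0.51 to 0.36). Tsc22d3, which encodes the glucocorticoid-induced leucine zipper, rose by 0.62 ± 0.10 in the hypothalamus and 0.40 ± 0.10 in the brainstem. The receptor gene itself, Nr3c1, fell by 0.42 and 0.45, to 973 ± 172 normalized counts after ozone against 1291 ± 135 after air in the hypothalamus, and to 834 ± 16.8 against 1142 ± 99.2 in the brainstem (SD, n = 4). Limma gave Nr3c1 adjusted p = 0.0452 in the hypothalamus and 0.0331 in the brainstem. The hypothalamus call of Nr3c1 held in the 4 fits without hypothalamus air 3, hypothalamus ozone 18, brainstem air 1 or brainstem air 3 and was lost without any other library (highest adjusted p 0.144). Its brainstem call was lost without any brainstem library but air 1 (highest 0.105). Both Nr3c1 calls held without the 3 liver-rich libraries (limma adjusted p = 0.00801 in the hypothalamus and 0.00622 in the brainstem). The brainstem call of Tsc22d3 was lost without any brainstem library but ozone 18, and without hypothalamus air 1 or 4 (highest 0.139).

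Promoters are shown for 4 shared higher genes, the first named by rule that had a single start site in the promoter reference. Each is the stretch from 250 bases before to 50 bases after the annotated start in RefSeq (build GRCr8), written from 5′ to 3′ on the strand of the gene. Capitals mark TGTTCT, a core motif of glucocorticoid receptor binding, searched on both strands.
Fkbp5, chr20:6543506-6543805, minus strand: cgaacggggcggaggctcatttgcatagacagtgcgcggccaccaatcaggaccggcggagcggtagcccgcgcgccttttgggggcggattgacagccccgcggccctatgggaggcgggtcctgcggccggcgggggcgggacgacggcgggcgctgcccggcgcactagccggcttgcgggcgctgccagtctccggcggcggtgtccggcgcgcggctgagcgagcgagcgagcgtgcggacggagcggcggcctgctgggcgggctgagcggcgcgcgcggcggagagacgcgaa
Cdkn1a, chr20:7150682-7150981, plus strand: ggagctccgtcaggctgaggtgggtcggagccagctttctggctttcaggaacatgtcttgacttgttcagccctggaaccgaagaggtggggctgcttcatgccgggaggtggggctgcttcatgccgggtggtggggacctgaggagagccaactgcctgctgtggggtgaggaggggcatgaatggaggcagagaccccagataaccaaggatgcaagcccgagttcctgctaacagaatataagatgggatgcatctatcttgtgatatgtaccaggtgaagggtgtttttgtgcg
Fmo2, chr13:77777485-77777784, minus strand: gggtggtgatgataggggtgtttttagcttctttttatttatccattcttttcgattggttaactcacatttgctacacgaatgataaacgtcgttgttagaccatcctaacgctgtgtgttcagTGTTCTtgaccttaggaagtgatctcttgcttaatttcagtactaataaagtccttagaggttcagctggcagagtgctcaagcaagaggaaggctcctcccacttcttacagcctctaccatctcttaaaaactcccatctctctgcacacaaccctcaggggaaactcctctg
Mt1, chr19:10832926-10833225, minus strand: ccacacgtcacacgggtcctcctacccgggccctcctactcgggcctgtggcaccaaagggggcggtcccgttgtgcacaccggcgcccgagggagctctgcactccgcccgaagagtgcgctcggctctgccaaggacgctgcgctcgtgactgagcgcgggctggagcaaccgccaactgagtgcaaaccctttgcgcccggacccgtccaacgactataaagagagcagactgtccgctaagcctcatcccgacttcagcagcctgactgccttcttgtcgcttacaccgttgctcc

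Of these 4 windows that of Fmo2 held TGTTCT, at position -125 from the start. None held the full receptor palindrome, searched as GNACA and TGTNC separated by 3 bases of any kind, or the E-box CACGTG of clock factors, each on both strands. TGTTCT was found in 12.6% of the 87 shared higher genes with a promoter in the table, in 6.82% of the 44 shared lower genes and in 12% of the 10184 tested genes with one. The E-box stood in 13.8%, 2.27% and 9.1% of the same sets, and the palindrome in 0%, 0% and 0.265%. TGTTCT and the palindrome can overlap. A match is a description of these letters in this window.

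Hif3a and Zbtb16 had large rises in both tissues. Hif3a, a subunit related to the hypoxia-inducible factors, had 125, 48.1, 153 and 97.5 normalized counts in the hypothalamus ozone libraries, against 10.8, 15.3, 7.53 and 8.03 in hypothalamus air. Its brainstem values were 84, 48.6, 110 and 104 after ozone, against 3.23, 19.8, 3.11 and 9.56 after air. Number 18 was lowest among the ozone libraries and number 2 highest among the air libraries in both tissues, without overlap. The change was 3.15 ± 0.47 in the hypothalamus and 3.41 ± 0.47 in the brainstem, with a wide interval for the difference (-1.67 to 1.16). Zbtb16, a zinc finger repressor, showed the same order: 229, 98.1, 278 and 215 against 32.5, 82.4, 36.7 and 37.5 normalized counts in hypothalamus ozone and air, and 324, 138, 293 and 262 against 31.2, 84.4, 34.2 and 46.8 in brainstem ozone and air. Its change was 2.10 ± 0.38 in the hypothalamus and 2.39 ± 0.38 in the brainstem. Liver transcripts were also highest in these libraries within their groups, and the part of that in the result was not tested.

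Some genes of lipid and energy metabolism rose in both tissues. Of 26 tested genes for lipid droplets, fatty acid oxidation and fuel switching, limma called 4 higher and none lower in each tissue, namely in both tissues Plin4, Pnpla2, Pex11a and Gpd1. The share called higher among all tested genes was 1.46% in the hypothalamus and 1.25% in the brainstem. Gpd1, the cytosolic glycerol-3-phosphate dehydrogenase that links glycolysis to lipid synthesis, had 2083, 1606, 2209 and 2025 normalized counts after ozone in the hypothalamus, against 567, 571, 459 and 449 after air. Brainstem libraries had 3697, 3623, 3995 and 4040 after ozone, against 1235, 1156, 1016 and 983 after air. The brainstem level was higher at both exposures, yet the changes were 1.95 ± 0.11 in the hypothalamus and 1.81 ± 0.11 in the brainstem, with a difference of 0.14 ± 0.15 (95% interval -0.18 to 0.46). Pnpla2, the lipase that opens triglyceride stores, rose by 1.53 ± 0.08 in the hypothalamus and 1.25 ± 0.08 in the brainstem (difference 0.28 ± 0.11, limma adjusted p = 0.832). Plin4, a coat protein of lipid droplets, rose by 2.54 ± 0.20 and 2.09 ± 0.20, to means of 80.7 and 141 normalized counts after ozone, against 13.4 and 31.9 after air in hypothalamus and brainstem. The flavin monooxygenase Fmo2 rose by 1.92 ± 0.24 in the hypothalamus and 2.02 ± 0.24 in the brainstem. The median change of the 26 genes was 0.14 in the hypothalamus and 0.13 in the brainstem, against -0.004 and -0.002 for all genes tested.

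Of 11 metallothionein and zinc genes, limma called 2 higher and 1 lower in each tissue (2.64% and 2.13% called over all tested genes). Their median changes were -0.11 in the hypothalamus and 0.14 in the brainstem. The higher ones were Mt2A and Mt1, which encode metallothioneins, small proteins that bind zinc and copper, and the lower one was Slc39a10. Mt2A had 224, 257, 386 and 366 normalized counts in hypothalamus ozone, against 79.4, 187, 51.7 and 56.2 in hypothalamus air, and 485, 855, 664 and 589 in brainstem ozone, against 206, 215, 124 and 151 in brainstem air. Its change was 1.88 ± 0.32 in the hypothalamus and 1.90 ± 0.32 in the brainstem. Mt1 had 218, 259, 266 and 269 in hypothalamus ozone, against 57.8, 241, 47 and 30.3 in hypothalamus air, where library 2 reached the ozone range. In the brainstem Mt1 had 239, 641, 371 and 388 after ozone, against 70, 155, 80.9 and 81.2 after air. The changes of Mt1 were 1.90 ± 0.46 (limma adjusted p = 0.0352) and 2.06 ± 0.46 (0.0239) in hypothalamus and brainstem. Its call in the hypothalamus was lost without any of hypothalamus ozone 17 to 20, hypothalamus air 1, 3 or 4, or brainstem ozone 20, and also by edgeR, by DESeq2 and with the 8 hypothalamus libraries fitted alone. Its call in the brainstem was lost without brainstem ozone 18, 19 or 20 or brainstem air 1, 3 or 4 (highest adjusted p over the alternatives 0.157 in the hypothalamus and 0.0741 in the brainstem). Without the 3 liver-rich libraries Mt1 was called in both tissues (limma adjusted p = 0.000134 in the hypothalamus and 0.00102 in the brainstem). The zinc importer Slc39a10 fell in both, by 0.33 and 0.38, and its hypothalamus call was lost without hypothalamus air 1, ozone 17 or ozone 20 (highest adjusted p 0.0584).

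Rasgrp3, Ccnd1 and Gab1 fell in both tissues. Rasgrp3, an exchange factor that activates Ras and Rap in endothelium and lymphocytes, had 257, 337, 246 and 266 normalized counts in the hypothalamus ozone libraries, against 584, 546, 579 and 572 in hypothalamus air. In the brainstem it had 646, 739, 673 and 593 after ozone, against 1523, 1510, 1646 and 1658 after air. The brainstem held more Rasgrp3 at each exposure, and the changes were -1.05 ± 0.09 in the hypothalamus and -1.26 ± 0.09 in the brainstem (difference 0.21 ± 0.13, 95% interval -0.06 to 0.48). Cyclin D1 (Ccnd1), which drives entry into the cell cycle, had 193, 191, 188 and 219 in hypothalamus ozone against 345, 340, 312 and 337 in hypothalamus air, and 190, 215, 209 and 179 in brainstem ozone against 340, 333, 417 and 444 in brainstem air. Its change was -0.75 ± 0.10 in the hypothalamus and -0.94 ± 0.10 in the brainstem, while Cdkn1a, whose product inhibits the kinases that cyclins activate, rose. The receptor adaptor Gab1 changed by -0.95 ± 0.14 and -0.79 ± 0.14 in hypothalamus and brainstem, and its brainstem call was lost in the fit of all 32 libraries (limma adjusted p = 0.0549).

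The immune genes Cd180 and Gbp2 fell in both tissues. Cd180, a Toll-like receptor homologue of B cells and myeloid cells, had 19.9, 34.4, 16.5 and 23.4 normalized counts in hypothalamus ozone against 55.4, 68, 64.9 and 57.1 in hypothalamus air. It had 25.1, 32.6, 16.4 and 22.4 in brainstem ozone against 74.3, 98.9, 89.2 and 79.3 in brainstem air. No ozone library reached the air range, and the change was -1.39 ± 0.22 in the hypothalamus and -1.81 ± 0.22 in the brainstem. Limma called 1.18% of all tested genes lower in the hypothalamus and 0.874% in the brainstem. Of 28 interferon-responsive and antigen-presentation genes, 0 were called higher and 2 lower in the hypothalamus, and 0 higher and 1 lower in the brainstem, with median changes of -0.19 and -0.31. The guanylate-binding protein Gbp2 was the shared one, at -1.07 ± 0.21 in the hypothalamus and -1.10 ± 0.21 in the brainstem. Its brainstem call was lost with the 8 brainstem libraries fitted alone (limma adjusted p = 0.0628). Of 15 microglia markers tested, 3 in the hypothalamus and 1 in the brainstem had an unadjusted p under 0.05 by limma. Among all 14536 genes 2104 and 1643 did. The markers gave no call in either tissue by limma, with medians of -0.17 in the hypothalamus and -0.21 in the brainstem. Their summed level was 356 to 389 RPM after ozone and 366 to 412 RPM after air in the hypothalamus, and 346 to 401 RPM after ozone and 368 to 405 RPM after air in the brainstem. The marker Siglech was at 0 in every library, and the part of microglia in the immune genes was not tested.

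Among blood vessel genes more were called lower than higher, and Slco1c1, Kdr and Mfsd2a changed in both tissues. Of 21 endothelial markers, 2 were called higher and 4 lower in the hypothalamus, and 1 higher and 4 lower in the brainstem. The shares among all tested genes were 1.46% higher and 1.18% lower in the hypothalamus, and 1.25% and 0.874% in the brainstem. Slco1c1, the thyroxine and organic anion transporter of the blood-brain barrier, had 280, 382, 317 and 352 normalized counts in hypothalamus ozone, against 677, 657, 719 and 683 in hypothalamus air. It had 478, 523, 454 and 394 in brainstem ozone, against 947, 982, 995 and 874 in brainstem air. Slco1c1 changed by -1.05 ± 0.10 in the hypothalamus and -1.04 ± 0.10 in the brainstem, and the 95% interval of its difference was -0.30 to 0.29. The vascular endothelial growth factor receptor Kdr changed by -0.94 ± 0.19 (limma adjusted p = 0.0124) and -0.85 ± 0.19 (0.0277). The Kdr call in the hypothalamus was lost without hypothalamus air 1 (adjusted p = 0.0522), and that in the brainstem without any brainstem library but ozone 18 (highest adjusted p 0.112). Mfsd2a, which carries omega-3 lipids across the barrier, rose by 1.17 ± 0.14 in the hypothalamus and 1.19 ± 0.14 in the brainstem. The glucose transporter Slc2a1 was the other marker that rose in the hypothalamus (0.84 ± 0.16), with a brainstem value of 0.50 ± 0.16 (adjusted p = 0.139). The 21 markers summed to 1103 to 1386 RPM after ozone and 1057 to 1077 RPM after air in the hypothalamus, and to 1419 to 1586 RPM after ozone and 1330 to 1522 RPM after air in the brainstem. In the hypothalamus the ozone range of this sum lay wholly above the air range, although more markers were called lower than higher. In the brainstem the ranges overlapped. The part of these markers in the result was not tested.

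Oligodendrocyte genes moved both ways: Aspa rose, and Olig2 and Opalin fell, in both tissues. Aspa, the aspartoacylase that frees acetate from N-acetylaspartate in oligodendrocytes, had 950, 640, 906 and 921 normalized counts in hypothalamus ozone, against 267, 316, 286 and 321 in hypothalamus air. It had 1717, 1310, 1620 and 1587 in brainstem ozone, against 593, 660, 720 and 655 in brainstem air. The changes of Aspa were 1.5 ± 0.12 in the hypothalamus and 1.24 ± 0.12 in the brainstem. Olig2, the transcription factor of the lineage, changed by -0.75 ± 0.12 and -0.60 ± 0.12, and the myelin protein Opalin by -0.35 ± 0.08 and -0.58 ± 0.08. The hypothalamus call of Opalin was lost without hypothalamus air 1, 2 or 4 or ozone 19 or 20 (highest limma adjusted p 0.0928). Elovl7, a fatty acid elongase, changed by -0.98 ± 0.14 in the hypothalamus and -0.85 ± 0.14 in the brainstem. Limma called 2.64% of all tested genes in the hypothalamus and 2.13% in the brainstem. Of the 19 markers tested, 3 were called higher and 3 lower in the hypothalamus, and 1 higher and 3 lower in the brainstem. The markers summed to 18539 to 20522 RPM after ozone and 17593 to 19236 RPM after air in the hypothalamus, and to 45100 to 51716 RPM after ozone and 48633 to 51813 RPM after air in the brainstem, and their part in the result was not tested.

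Some genes were called in 1 tissue with an unadjusted p over 0.05 in the other. There were 98 such genes among the 209 called in the hypothalamus alone and 52 among the 134 called in the brainstem alone. In the hypothalamus they included Gjb6, the connexin 30 of astrocytes, which had 1108, 1386, 1009 and 1031 normalized counts after ozone against 651, 768, 667 and 636 after air. In the brainstem Gjb6 overlapped, with 1326, 1415, 1293 and 1340 after ozone against 984, 1053, 1446 and 1184 after air. Its change was 0.73 ± 0.11 in the hypothalamus (limma adjusted p = 0.00192) and 0.22 ± 0.11 in the brainstem (0.521), and the difference of 0.51 ± 0.16 did not pass (0.832). The hypothalamus call of Gjb6 was lost in the fit of all 32 libraries (adjusted p = 0.0635). Smox, the spermine oxidase, changed by 0.49 ± 0.09 in the hypothalamus and 0.15 ± 0.09 in the brainstem, and the RNA-binding protein gene Qk by -0.71 ± 0.12 and -0.24 ± 0.12. In the brainstem they included Col4a3, a basement membrane collagen (0.67 ± 0.12, against 0.15 ± 0.12 in the hypothalamus), and Car4, the carbonic anhydrase of capillaries (-0.81 ± 0.15, against -0.24 ± 0.15 in the hypothalamus). The call of Car4 was lost with the 8 brainstem libraries fitted alone (limma adjusted p = 0.0604). None of the 209 or 134 genes passed the test of the tissue difference itself, which had an unadjusted p under 0.05 for 59 and 36 of them. The share among all tested genes was 4.35%. A call in 1 tissue and not in the other chose the 209 and 134 genes, which favours a small p for the difference.

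Among the pathway lists the glucocorticoid-responsive genes held most calls. That list was also the longest, and all lists were chosen with earlier results of these data known. Among all tested genes 1.46% were called higher in the hypothalamus and 1.25% in the brainstem. Of the 40 glucocorticoid-responsive genes tested, limma called 15 higher and none lower in the hypothalamus (median change 0.65), and 18 higher and none lower in the brainstem (median 0.60). Both tissues called 12 of the same members, among them Fkbp5, Tsc22d3, Gpd1 and Cdkn1a. Bcl6, Slc2a1 and Gjb6 were called in the hypothalamus alone, and Klf9, Errfi1, Sult1a1, Arrdc2, Map3k6 and Fam107a in the brainstem alone. No member of any list passed the test of the tissue difference. Of 25 immediate early genes, which neurons switch on when they fire, limma called none higher in either tissue. A positive change was seen for 8 of them in the hypothalamus and 7 in the brainstem. Limma called 2 lower in the hypothalamus and 1 lower in the brainstem. Among all tested genes it called 1.18% and 0.874% lower. At the shares called higher among all tested genes, a list of this length may hold no such call. Egr1 (-0.67 ± 0.16) and Bdnf (-0.65 ± 0.12) fell in the hypothalamus, with brainstem values of -0.30 ± 0.16 and -0.08 ± 0.12, and Jun, which the naming rule did not take, fell in the brainstem by 0.61. The hypothalamus call of Egr1 was lost without hypothalamus air 1, 3 or 4 or ozone 19 or 20 (highest limma adjusted p 0.115). Fos had 61.5, 32.4, 98.3 and 53.8 normalized counts in hypothalamus ozone against 130, 70, 132 and 108 in hypothalamus air, and 42.5, 44.3, 51.5 and 29.5 in brainstem ozone against 88.3, 62.5, 48.7 and 68.8 in brainstem air. The Fos groups overlapped in both tissues and neither change passed (limma adjusted p = 0.135 and 0.386). Averaged over both tissues, Fos was called lower by limma. That averaged change lay between -0.90 and -0.64 over 30 alternatives. The call was lost in 9 of them, among them the fit on the mean of both tissues per number.

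The remaining lists held few calls. Among 22 clock genes the deubiquitinase gene Usp2 rose in both tissues (0.72 ± 0.18 in the hypothalamus and 1.19 ± 0.18 in the brainstem) and the clock repressor Ciart in the hypothalamus (0.94 ± 0.18). The hypothalamus call of Usp2 was kept only without hypothalamus ozone 18, brainstem air 1, 3 or 4 or brainstem ozone 18 (highest limma adjusted p 0.139). Of 17 heat-shock genes, 2 were called higher and 1 lower in the hypothalamus (median change -0.04). The brainstem had 1 higher and 0 lower (median -0.06). The small chaperone Cryab rose by 1.13 ± 0.12 in the hypothalamus and 0.81 ± 0.12 in the brainstem. In the hypothalamus Bag3 was called higher and Chordc1 lower, and both calls depended on single libraries (highest limma adjusted p 0.0876 and 0.0954). Of 20 inflammatory genes, 2 were called higher and 1 lower in the hypothalamus, and 0 higher and 1 lower in the brainstem. The lower one was Cd180 in each tissue. The higher ones were the cytokine receptors Osmr (1.38 ± 0.26) and Il6r (0.91 ± 0.19). Their brainstem values of 0.70 ± 0.26 and 0.30 ± 0.19 did not pass. The call of Il6r was lost without hypothalamus air 1, 3 or 4 or ozone 17 (highest limma adjusted p 0.0565). Of 20 hypoxia-inducible factor targets, 3 were called higher and 1 lower in the hypothalamus, and 1 higher and 1 lower in the brainstem, with median changes of -0.01 and -0.04. Hif3a rose in both, and Slc2a1 and Ndrg1 in the hypothalamus. Ndrg1, which the naming rule did not take, had a change of 0.27 there (limma adjusted p = 0.0463) and 0.03 in the brainstem. P4ha1, a collagen prolyl hydroxylase, fell by 0.75 and 0.66 in hypothalamus and brainstem. The cholesterol feedback gene Insig1 rose by 0.61 ± 0.09 and 0.42 ± 0.09, as the 1 call in either tissue among 22 cholesterol synthesis genes. Its brainstem call was lost without brainstem air 1, 3 or 4 or ozone 17 or 19 (highest limma adjusted p 0.0824). Limma called none of 23 NRF2 antioxidant genes in either tissue, where 3 in the hypothalamus and 1 in the brainstem had an unadjusted p under 0.05. Among all 14536 genes it called 2.64% and 2.13%, and 2104 and 1643 had an unadjusted p under 0.05. At these shares a list of this length may hold no call. Of 24 genes of the stress axis limma called Nr3c1 alone. It called none of 20 neuron markers, of which 1 in the hypothalamus and 0 in the brainstem had an unadjusted p under 0.05, and of 18 astrocyte markers Gjb6 alone, in the hypothalamus. The 11 hindbrain Hox genes gave no call. They passed the filter on low values through their brainstem level and summed to 0.117 to 2.75 RPM in hypothalamus ozone and 0 to 0.463 RPM in hypothalamus air, so no change is read from them in the hypothalamus.

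**Figure D4:**
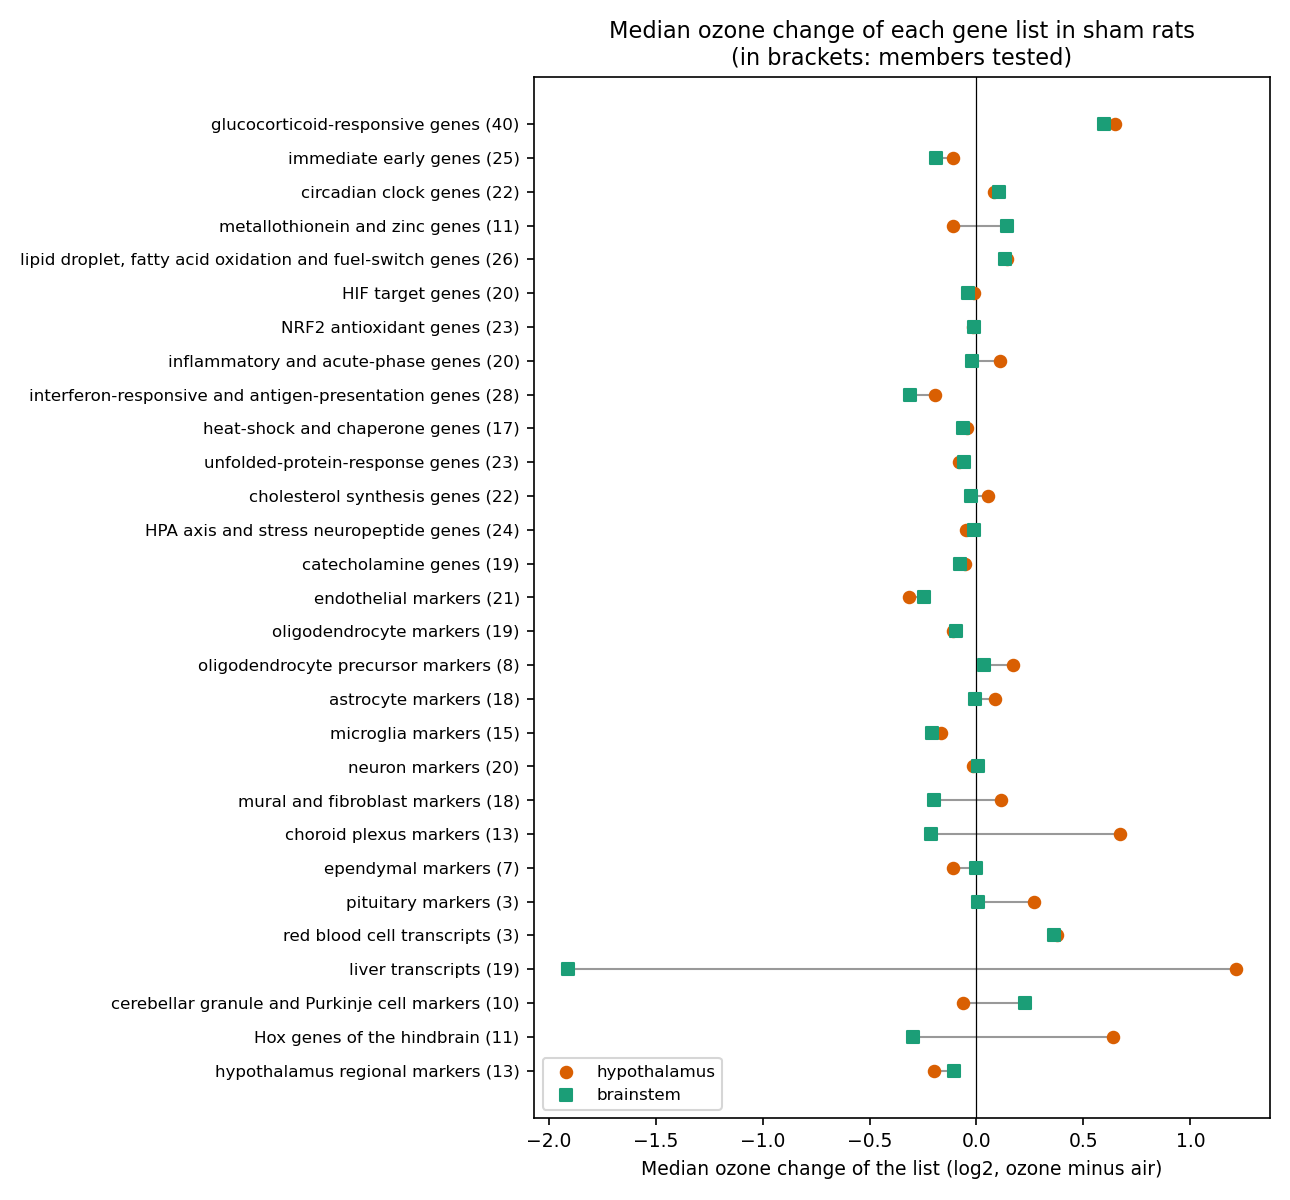
Median ozone change of each gene list over its tested members (number in brackets), as ozone minus air on the log2 scale, in the hypothalamus (circles) and the brainstem (squares). The glucocorticoid-responsive list lies at 0.65 and 0.60, and the liver list lies farthest apart at 1.21 and -1.91.

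Averaging the change over both tissues gave limma 891 calls (6.13% of 14536), 447 higher (3.08%) and 444 lower (3.05%). If a number marks an animal, the p of this test is too small. With the mean of both tissues per number as the unit, limma called 588 genes. Of the 891, 405 were called in neither tissue alone, 182 higher and 223 lower. All 405 had the same sign in both tissues and 346 of them changed by less than 1.5-fold. These 405 genes were chosen by a call for the mean without one in either tissue, which favours like signs and small changes. They included the metallothionein Mt1m (1.56 ± 0.42 in the hypothalamus and 1.64 ± 0.42 in the brainstem), Fa2h, the fatty acid hydroxylase of myelin (-0.37 ± 0.11 and -0.41 ± 0.11), the splicing kinase gene Clk1 (-0.47 ± 0.13 in each), cyclin D3 (Ccnd3, -0.37 ± 0.11 and -0.45 ± 0.11) and the amino acid transporter Slc7a10 (-0.28 ± 0.07 and -0.25 ± 0.07), whose call was lost in the fit of all 32 libraries (limma adjusted p = 0.0877). Sgk1, a kinase that glucocorticoids induce, had 1244, 476, 1494 and 932 normalized counts in hypothalamus ozone against 830, 302, 292 and 490 in hypothalamus air. It had 1836, 502, 2155 and 1269 in brainstem ozone against 958, 384, 421 and 514 in brainstem air, so that number 18 was the lowest ozone library in both tissues. Its averaged change was 1.19 ± 0.32 (limma adjusted p = 0.0372), which 12 of the 16 fits with a library left out did not keep, the exceptions being those without brainstem air 1, brainstem ozone 18, hypothalamus air 1 or hypothalamus ozone 18. The Sgk1 call was also lost with the mean per number and with no filter on low values. It held without the 3 liver-rich libraries (limma adjusted p = 0.00116).

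The ADREX libraries, from rats without adrenal glands, gave no limma calls for the same comparison. In a fit of all 32 libraries, limma called 0 of 14533 genes (0%) for the difference between sham and ADREX rats in the tissue difference of the ozone change. At an unadjusted p under 0.05 there were 187 genes, and edgeR and DESeq2 called 0 each on the 31 libraries with recovered reads. The limma median SE of this sham minus ADREX contrast was 0.34, against 0.20 for the sham tissue difference. Larger differences than in the sham fit could therefore go uncalled. In ADREX rats alone limma called 0 genes (0%) for the tissue difference, for ozone in the hypothalamus and for ozone in the brainstem, with 725, 1053 and 1283 genes at an unadjusted p under 0.05. For these 3 edgeR called 0, and DESeq2 called 0, 1 and 0. The 175 shared genes had median changes, in the direction of the sham call, of 0.63 in sham hypothalamus and 0.65 in sham brainstem, against 0.09 in ADREX hypothalamus and 0.03 in ADREX brainstem. Pla2g3 changed by 0.64 in ADREX hypothalamus and 0.43 in ADREX brainstem, and its tissue difference exceeded that of ADREX rats by 1.21 ± 0.50 (limma adjusted p = 1, unadjusted p = 0.0225). The sham calls chose these genes, so the ADREX values are set beside them as a description.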

How the data were processed

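The authors deposited 1 table of 32 libraries whose unit is a signal: read counts per gene that they had normalized. Per the submitters' processing notes, Partek, DESeq2 and genome build rn6 were used, with neither role nor version stated. The aligner (not given in the sources used here) and the annotation are unknown. Tissue, operation and exposure were taken from the sample labels. In each sham column the values were whole multiples of 1 step, between 0.726 and 1.2, so that whole reads (tolerance 0.001) came back for 100% of values, and their totals gave the depths of 6.48 to 11.3 M reads.

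The 16 sham libraries were fitted alone, as log2(value + 1), with 4 group means in limma 3.58.1 (R 4.3.3, mean-dependent prior variance, Benjamini-Hochberg adjustment). Genes with a mean under 10 were left out, and an adjusted p under 0.05 was a call. Changes on this scale understate those of low genes. The contrasts were ozone minus air in each tissue, their difference and their mean. Alternatives were 2 pseudocounts, 2 filters, 2 rescalings, limma array weights, edgeR 4.0.16 and DESeq2 1.42.0 on the recovered reads, other sets of libraries, the replicate number as a block and each library left out. In the fit of all 32, 1 ADREX column had no recoverable step, so the count tests used 31 libraries.

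The comparison, its 29 gene lists and a panel of 31 genes were chosen with earlier results of these data known. Genes were named by rule: every call of the tissue difference and the 5 smallest p in each direction; 12 higher and 10 lower shared calls with the largest smaller change; 6 calls per tissue with p over 0.05 in the other; 10 calls of the mean alone; up to 4 called members per list; and the panel. A mean of 50 in the highest group was required outside the lists and the panel, and some genes of the rule are left out for length. Steps were tested on simulated data. How reads of near-identical genes were counted is unknown here, so the metallothioneins, among others, are uncertain.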

Additional observations from a re-analysis of the deposited data

Results flagged for a closer look

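The ozone change of Pla2g3 differed between the tissues by the test of the difference itself (1.42 on the log2 scale, hypothalamus minus brainstem). The call was lost under 16 of 29 alternatives, among them the fixed replicate block (limma adjusted p = 0.0989) and the fit of all 32 libraries (0.983).

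In 220 groups of 4 libraries, formed by the named genes and the library measures, 23 held 1 library whose gap to the nearest other exceeded Dixon's 95% critical value for groups of that size. Chance flags about 1 in 20 groups, and the groups share libraries. Hypothalamus ozone 18 was highest for liver transcripts (3052 RPM, others 23.8 to 259), Agfg2 (415 normalized counts, others 245 to 259) and Elmo2 (2018, others 1848 to 1870). Hypothalamus ozone 20 was highest for Ccnd1 (219 normalized counts, others 188 to 193) and Car4 (78.2, others 64.3 to 66.2), and hypothalamus ozone 17 for red blood cell transcripts (513 RPM, others 73.7 to 92.5). Hypothalamus air 2 was highest for liver transcripts (3926 RPM, others 14.9 to 24.2), Zbtb16 (82.4 normalized counts, others 32.5 to 37.5), Mt1 (241, others 30.3 to 57.8) and Mt1m (85.3, others 12 to 21.6). Hypothalamus air 1 was highest for Gab1 (170 normalized counts, others 125 to 127), and hypothalamus air 3 was lowest for Cml5 (119, others 146 to 149).

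Brainstem ozone 18 was the deepest library of its group (11.3 M reads, others 6.94 to 7.6), and highest for liver transcripts (3687 RPM, others 22.3 to 102), Rgs16 (112 normalized counts, others 86.2 to 88.8) and Tm4sf1 (70.4, others 47.1 to 50.8). Brainstem ozone 17 was highest for red blood cell transcripts (632 RPM, others 117 to 154) and brainstem ozone 20 for Elmo2 (1628 normalized counts, others 1585 to 1591). Brainstem air 2 was highest for Pla2g3 (155 normalized counts, others 130 to 134) and Mt1 (155, others 70 to 81.2), and brainstem air 1 for Kdr (354, others 298 to 303). Brainstem air 3 was lowest for Gpatch4 (270 normalized counts, others 325 to 335) and Qk (2119, others 2540 to 2598).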

How the results depend on the processing

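The tissue difference gave 0 calls with all 32 libraries in the fit, with a fixed replicate block, without the 3 liver-rich libraries and without number 18, and 0 to 1 with each library left out; in the fit of 32 libraries the adjusted p of Pla2g3 was 0.983. With limma array weights the calls were 937 in the hypothalamus, 472 in the brainstem, 1550 for the mean of both and 325 shared. With the 8 libraries of each tissue fitted alone they were 203, 171 and 88 shared. The hypothalamus gave 249 with all 32 libraries, and the brainstem 526 without the liver-rich libraries. With each library left out the calls ran from 225 to 418 in the hypothalamus, from 167 to 402 in the brainstem, from 647 to 1025 for the mean and from 115 to 211 shared, and the correlation across genes from -0.0284 to 0.476; it was 0.396 without number 18. In the fit without the 3 liver-rich libraries the hypothalamus calls of Psmb8 and Pdia4 were lost (limma adjusted p = 0.135 and 0.153). The cause of these shifts was not tested. The sham minus ADREX contrast gave 0 calls under every alternative run. For the 129 called values of single genes, 3654 of 3859 refits kept the direction and the call, 205 lost the call and 0 turned round; the other 10 values, tissue differences that were not called, kept their direction without a call in 290 of 290. The labels do not say that a shared number marks an animal: the deviations of same-numbered libraries correlated between tissues at -0.20 to 0.63, with 5 of 8 pairs over 0.1 and 2 of 8 best with their own number. With a fixed replicate block limma gave Pla2g3 adjusted p = 0.0989; with a random one it called 378, 306, 967 and 174 for hypothalamus, brainstem, mean and shared; the mean per number called 588. Depth limits low genes: the median SE of the tissue difference was 0.39 among the lowest quartile of genes by level and 0.13 among the highest.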

Other observations

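Several lists had no call in either tissue and median changes of opposite sign, and the lists below were picked from these. Members of a list share the same libraries, so their signs are not independent. Over all tested genes 56.2% had the same sign in both tissues. Of 18 mural and fibroblast markers, 13 had a positive change in the hypothalamus (median 0.12) and 2 in the brainstem (median -0.20). Their sum was 431 to 546 RPM after ozone and 419 to 525 after air in the hypothalamus, and 490 to 643 RPM after ozone and 490 to 791 after air in the brainstem. Of 13 choroid plexus markers, 12 had a positive change in the hypothalamus (median 0.67) and 3 in the brainstem (median -0.21). Of 10 markers of cerebellar granule and Purkinje cells, 2 had a positive change in the hypothalamus and 10 in the brainstem, where the sum was 339 to 920 RPM after ozone and 308 to 554 after air. The groups of these sums overlapped in each tissue.

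Beside the genes named by rule, the shared call with the largest difference toward the brainstem after Cdkn1a was the protocadherin Pcdh20, chosen after its values were seen. It changed by 0.70 in the hypothalamus and 1.5 in the brainstem, and the 95% interval of the difference was -1.23 to -0.37 (limma adjusted p = 0.832). The phosphatase Ptp4a3 changed by 0.76 and 1.28, with an interval of -1.01 to -0.04.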
